A study of Mus musculus with 15 samples.

Results

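The islets of mice that carry 2 human transgenes, one for islet amyloid polypeptide (IAPP) and one for calpastatin (CAST), were compared with the islets of mice that carry a rodent IAPP transgene. The comparison took 6 of the 15 libraries of the series, chosen by their labels: 3 libraries of the double transgenic group (hIAPP_hCAST) and 3 of the rodent group (rIAPP). All were bulk RNA from pancreatic islets of FVB/NJ mice at an age of 9 to 10 weeks. In hIAPP_hCAST mice the human IAPP gene is driven by the insulin II promoter and the human CAST gene, per the labels, by insulin; in rIAPP mice the rodent IAPP gene is driven by the insulin II promoter. The other groups were used as reference levels, with 3 libraries each: hIAPP (the human IAPP transgene alone), hCAST (the human CAST transgene alone, same promoter) and WT (no transgene). The 2 groups compared therefore differ in the species of the IAPP transgene and in the presence of the CAST transgene. The labels give no founder, insertion site, copy number, zygosity or colony, and the numbers in the sample titles lie in separate ranges for the 2 groups. Species of the IAPP transgene, CAST, insertion site and colony cannot be told apart in this comparison. The labels do not say whether each library came from a separate mouse, so p-values measure the spread between these libraries, which may be in part technical.

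IAPP is a small hormone that beta cells store and release together with insulin. The human peptide can aggregate into islet amyloid, whereas the rodent peptide does not form amyloid, and rodent IAPP transgenes are used as the control for extra peptide in the secretory pathway. Calpastatin is the endogenous inhibitor of the calpains, a family of calcium-dependent proteases. Resident macrophages, capillary endothelium and a thin matrix surround the endocrine cells of the islet, so a bulk islet library holds RNA of all of them, together with acinar and duct cells left from the isolation.

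The libraries held 36295060, 37916324 and 40191501 counts in hIAPP_hCAST 1, 2 and 3 and 35780458, 29438284 and 34250995 in rIAPP 1, 2 and 3. Values of 3 libraries are given in this order throughout, and the numbers follow accession order and pair nothing. Rn45s, Lars2 and Mir6236, which collect ribosomal reads, took 0.470%, 0.361% and 0.322% of the counts in hIAPP_hCAST and 1.99%, 67.7% and 11.8% in rIAPP, and they were left out before scaling. rIAPP 2 thereby kept 9510502 counts, against 30199765 to 40062153 in the other 5 libraries. Every library carried the hormone transcripts of islets, with insulin genes at 8.92% to 11.98% of the remaining counts in hIAPP_hCAST and 5.34% to 7.18% in rIAPP. The Y-linked Ddx3y lay between 106 and 114 CPM (counts scaled to the same library total in every sample) in hIAPP_hCAST and between 109 and 115 CPM in rIAPP, so the groups did not differ in this mark of male tissue, which was looked at after other results were known. hIAPP_hCAST 3 stood apart from its group in the RNA of non-endocrine cells. Its acinar genes summed to 12010 CPM, against 83710 and 175600 CPM in hIAPP_hCAST 1 and 2 and 122400, 171900 and 130100 CPM in rIAPP, and the counts of non-endocrine lists are given with and without it.

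Of 15595 genes tested, 2838 passed an adjusted p of 0.05 (18.2%), with 1567 higher in hIAPP_hCAST (10%) and 1271 lower (8.15%). All adjusted p-values are from edgeR's quasi-likelihood test with Benjamini-Hochberg adjustment over all tested genes, fold changes are log2 of hIAPP_hCAST over rIAPP with their standard error (SE), and CPM are scaled counts outside the 3 ribosomal-rich genes. A change of more than 2-fold was reached by 365 of the higher and 478 of the lower genes, and the median over all tested genes was 0.01. The 2 groups did not overlap in CPM for 33.8% of tested genes. Leaving out 1 library of the 6 gave between 1951 (without rIAPP 2) and 3177 (without hIAPP_hCAST 3) genes. With limma on the deposited FPKM, whose divisor includes the ribosomal reads, 89 genes passed, 57 higher and 32 lower, of which 75 were among the 2838. With a pseudocount of 0.1 in place of 1 there were 38, of which 27 were higher and 11 lower.

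**Figure D1:**
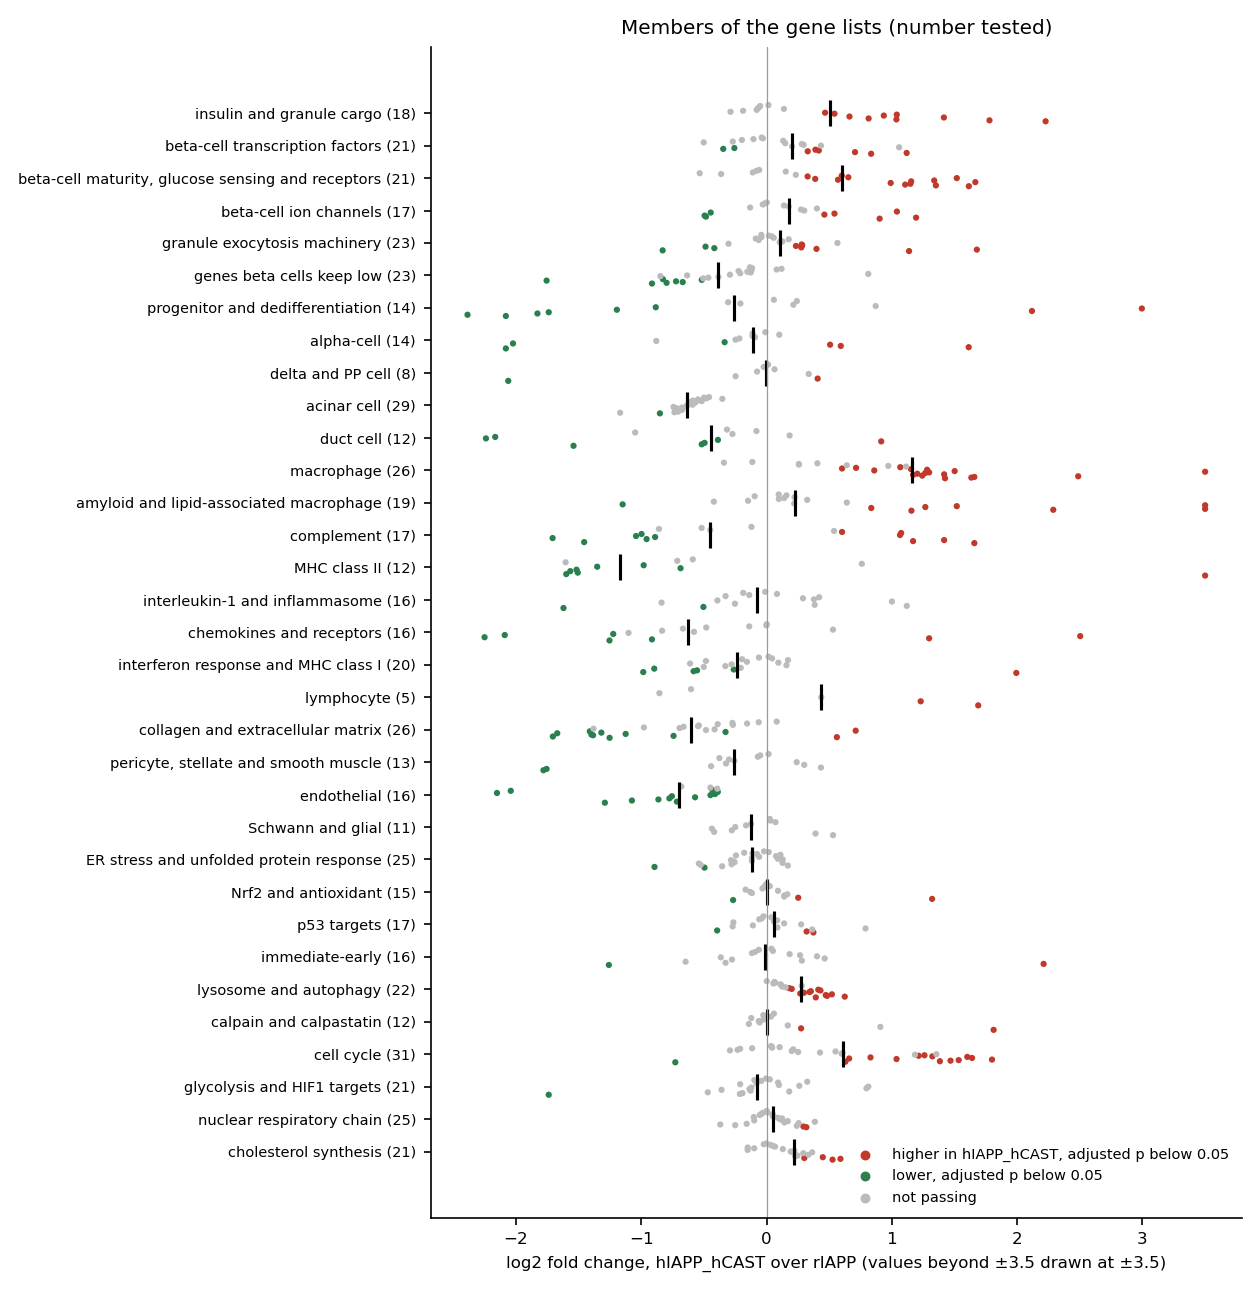
Log2 fold change of hIAPP_hCAST over rIAPP for each tested member of the gene lists with at least 3 tested members. Each point is 1 gene (red, higher; green, lower; grey, not passing), the black bar is the median of the list, and values beyond the axis are drawn at its end. Granule, maturity, macrophage, lysosome and cell cycle genes lie to the right, and MHC class II, endothelial and matrix genes to the left.

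The gene with the smallest p was Sema5a, which encodes a transmembrane semaphorin of axon guidance. It had 824, 762 and 887 CPM in hIAPP_hCAST and 7.49, 5.76 and 8.35 CPM in rIAPP (log2 fold change 6.79 ± 0.146 SE, edgeR adjusted p = 7.5e-15). The hIAPP libraries had 777, 760.0 and 766 CPM, against a mean of 19.3 ± 4.61 CPM (SD, n = 3) in WT and 16.6 ± 1.87 CPM in hCAST. The high level was thus shared by both groups with the human IAPP transgene, and rIAPP was the lowest of the 5 groups, below WT as well (log2 fold change of rIAPP over WT -1.25 ± 0.141 SE, edgeR adjusted p = 7.95e-06). Sema5a lies on the forward strand of chromosome 15 at 32244810 to 32696341 in GRCm38. Snhg18, a long noncoding RNA on the opposite strand at 32240565 to 32244662, starts 147 bases away. Snhg18 had 151, 126 and 162 CPM in hIAPP_hCAST and 12.7, 14.9 and 12.2 CPM in rIAPP (log2 fold change 3.49 ± 0.11 SE, edgeR adjusted p = 1.28e-12). Snord123, a small nucleolar RNA within Snhg18 whose reads cannot be told apart from those of its host here, rose by 3.19 on the log2 scale (adjusted p = 0.000637). The start region that both genes share is shown because Sema5a and Snhg18 rose together. It is the RefSeq window of GRCm38.p6, chr15:32244563-32244862 on the forward strand, with the 147 bases between the 2 genes in capitals.
Sema5a: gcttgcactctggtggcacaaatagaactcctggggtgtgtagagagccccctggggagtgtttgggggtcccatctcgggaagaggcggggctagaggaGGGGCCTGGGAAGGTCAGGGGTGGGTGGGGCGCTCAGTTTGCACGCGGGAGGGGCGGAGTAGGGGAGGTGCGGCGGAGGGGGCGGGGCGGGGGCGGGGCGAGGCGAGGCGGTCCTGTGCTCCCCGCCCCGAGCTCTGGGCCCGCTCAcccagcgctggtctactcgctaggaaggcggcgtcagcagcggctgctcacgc

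Of the 10 other tested genes within 1 Mb of Sema5a, 2 rose and 5 fell (20% and 50%, against 10% and 8.15% of all tested genes). Sdc2, a heparan sulfate proteoglycan 224381 bases away, was lower in hIAPP_hCAST, at 48.1, 46.2 and 39.2 against 86.2, 93 and 80.4 CPM (log2 fold change -0.96 ± 0.0781 SE, edgeR adjusted p = 2.75e-07). Cpq, a plasma peptidase, fell by 0.67 (adjusted p = 8.33e-07). Cct5, a chaperonin subunit, rose by 0.52 (adjusted p = 0.000532). Cct5 and Ankrd33b were the 2 that rose, the latter by 0.45, so the transcripts that rose by more than 3 on the log2 scale in this window were Sema5a, Snhg18 and Snord123.

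Another set of transcripts was high in hIAPP_hCAST and in hCAST, the groups with the CAST transgene, and low in rIAPP, hIAPP and WT. Tram1l1, a relative of the translocation factor of the endoplasmic reticulum, had 15.8, 12.8 and 15.9 CPM in hIAPP_hCAST and 3.71, 4.05 and 2.87 CPM in rIAPP (log2 fold change 2.10 ± 0.154 SE, edgeR adjusted p = 9.01e-08). In hCAST it had 14.1 ± 1.15 CPM and in hIAPP 2.39 ± 0.338 CPM (SD, n = 3). The gene 1700006A11Rik, which lies 76245 bases from Tram1l1 on chromosome 3, had 2.24, 1.85 and 2.25 CPM in hIAPP_hCAST and 1.96, 2.23 and 2.02 CPM in hCAST. All rIAPP, hIAPP and WT libraries held 0 counts of it. Its 248 counts in hIAPP_hCAST against 0 in rIAPP were at least 54.5-fold higher when the floor was set at 3 counts over the group. H2-Ea-ps, annotated as a pseudogene of an MHC class II alpha chain, had 143, 76 and 169 CPM against 1.56, 1.71 and 1.13 CPM (log2 fold change 6.51 ± 0.402 SE, edgeR adjusted p = 5.07e-07). It had 71.5 ± 3.54 CPM in hCAST and 0.384 ± 0.404 CPM in hIAPP.

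rIAPP islets in turn held transcripts that were low in every other group. Thsd7b, a thrombospondin-domain protein on chromosome 1, had 0, 0.0561 and 0.0225 CPM in hIAPP_hCAST and 5.85, 5.54 and 5.22 CPM in rIAPP. Its 3 counts against 427 give a ratio of 216 in favour of rIAPP, and counting error alone allows 73.4 to 1050. C1ql3, a secreted synaptic organizer of the C1q family, had 0.11, 0.0561 and 0.113 against 10.9, 15.3 and 9.19 CPM (log2 fold change -6.89 ± 0.381 SE, edgeR adjusted p = 4.33e-09). Gabra3, a GABA-A receptor subunit, had 0.301, 0.168 and 0.0901 against 7.82, 9.38 and 5.96 CPM. Col8a2, a short-chain collagen, had 0.164, 0.618 and 0.18 against 12.4, 11.9 and 10.1 CPM. The adhesion molecules Opcml and Cdh10 and the receptor Lrp1b fell by 4.98, 4.92 and 5.14 on the log2 scale. Vstm2a, a secreted immunoglobulin-domain protein, had 1.09, 1.46 and 0.609 against 22.7, 29 and 19.9 CPM. Absence of overlap between the 2 groups was a condition for choosing these genes, so it is not a result. The means of the other 4 groups were at most 1.05 CPM, reached by Vstm2a in hIAPP_hCAST. Ptchd4, Fbxw24 and Prkg2 complete the 12 largest falls with Msln: Ptchd4 had 3 counts against 77 (ratio 38.9, counting interval 12.8 to 193), and Fbxw24 and Prkg2 fell by 4.02 and 4.03.

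Msln, which encodes the mesothelial surface protein mesothelin, was the most abundant of these falls, at 12.1, 14.3 and 16.3 CPM in hIAPP_hCAST and 292, 214 and 236 CPM in rIAPP (log2 fold change -4.12 ± 0.237 SE, edgeR adjusted p = 1.64e-07). WT had 26.3 ± 7.13 CPM. Tle4, a transcriptional corepressor named here after its values were seen, was tight in every group. It had 14, 13.8 and 13.2 CPM in hIAPP_hCAST, 171, 187 and 151 CPM in rIAPP and 14 ± 2.64 CPM in WT (SD, n = 3), with a log2 fold change of -3.63 ± 0.101 SE and an edgeR adjusted p of 2.72e-13. Of the 15 other tested genes within 1 Mb of Thsd7b, 2 rose and 2 fell (13.3% each), near the shares of all tested genes (10% and 8.15%). Pigr, the epithelial immunoglobulin receptor, fell from 55.1, 44.4 and 49.1 CPM in rIAPP to 8.32, 15.1 and 10.1 CPM. Pfkfb2, a glycolytic regulator, rose by 0.96 (adjusted p = 3.19e-06). Cxcr4, 681008 bases away, had 5.99, 4.41 and 7.84 against 5.3, 6.61 and 6.54 CPM and did not pass.

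**Figure D2:**
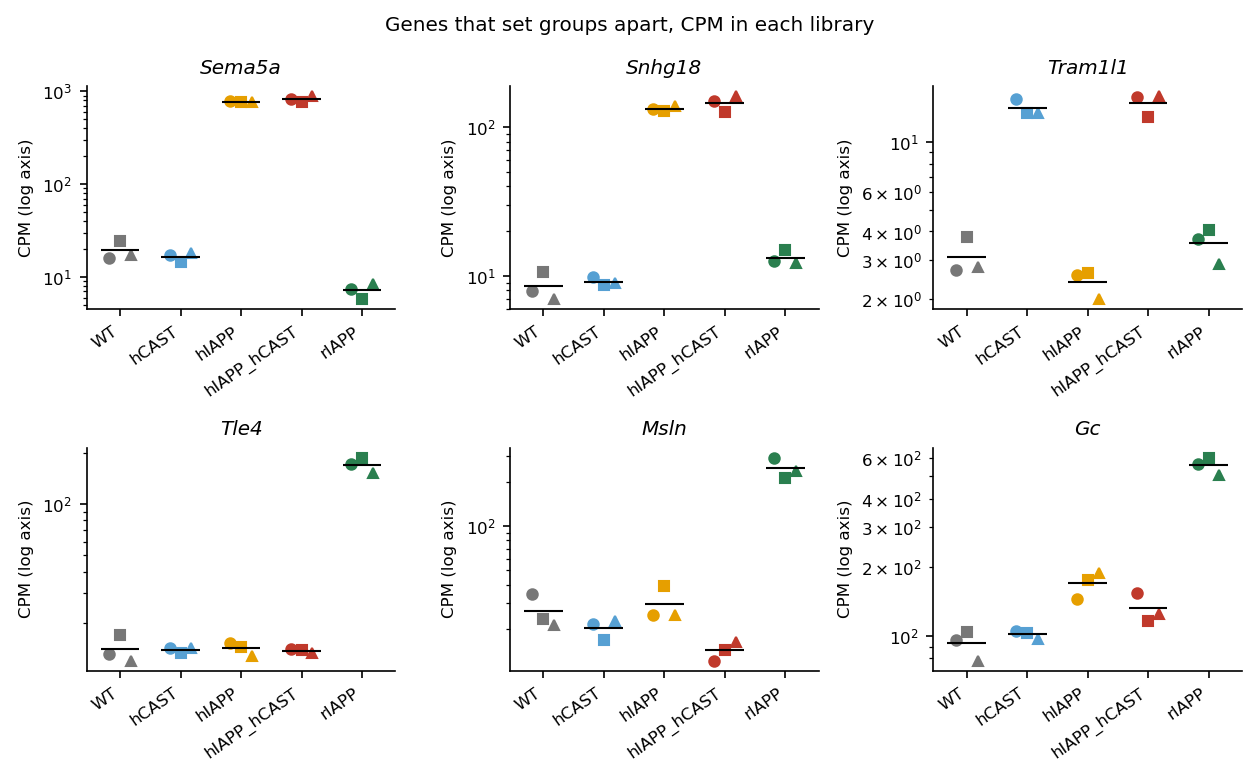
CPM (log axis) of 6 genes in each of the 15 libraries, 3 per group (circle, square and triangle, libraries 1, 2 and 3); black bars are group means. Sema5a and Snhg18 are high in both groups with human IAPP, Tram1l1 in both groups with CAST, and Tle4, Msln and Gc in rIAPP.

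The mouse Iapp transcript was lower in hIAPP_hCAST, at 32770, 33760 and 36210 CPM, than in rIAPP, at 50390, 56400 and 54100 CPM (log2 fold change -0.65 ± 0.169 SE, edgeR adjusted p = 0.0131). The groups did not overlap, but without rIAPP 2 the adjusted p was 0.0517. Reads of the rodent transgene may be counted on this gene and reads of the human one were not analysed here; their part in the difference was not tested. WT had 34530, 62470 and 33860 CPM. Mouse Cast, the endogenous gene of calpastatin, had 31.1, 30.4 and 32.1 against 27.4, 25.4 and 24.5 CPM (log2 fold change 0.28 ± 0.0706 SE, edgeR adjusted p = 0.0112; 0.0652 without rIAPP 3). Its level was 30.6 ± 0.902 CPM in hCAST and 30.1 ± 1.25 CPM in WT; reads of the human CAST transgene were not analysed here. Of 12 tested calpain and calpastatin genes, 2 rose (1 in a fit of the 2 groups alone) and 0 fell. Over all genes 10% rose and 8.15% fell. The median of the list was 0.004 (all genes: 0.01) and ran from -0.04 to 0.16 under the alternatives on counts. Beside Cast, the riser in the main fit was Capn9, a calpain of mucosal epithelia, at 1.94, 2.11 and 1.31 against 0.494, 0.426 and 0.548 CPM. Capn1 and Capn2, which encode the catalytic subunits of the ubiquitous calpains, had log2 fold changes of -0.03 and 0.03 and did not pass.

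Insulin and the cargo of its granules were higher in hIAPP_hCAST. Of 18 tested genes of this list 10 rose, 0 fell and 8 did not pass, with a median of 0.50 (all genes: 10% rose, median 0.01). Ins1 had 59220, 47000 and 55150 CPM against 29670, 22040 and 32660 CPM (log2 fold change 0.94 ± 0.129 SE, edgeR adjusted p = 7.48e-05), and Ins2 55880, 47630 and 53060 against 38290, 32080 and 37190 CPM (log2 fold change 0.54 ± 0.104 SE, edgeR adjusted p = 0.00142). No library of one group overlapped the other. The 2 insulin genes are near-identical, so their split depends on how the authors counted shared reads. The count of rises was 10 under all 13 alternatives on counts, the fit without hIAPP_hCAST 3 included. In bulk RNA, a change in the number of cells of a type and a change in RNA per cell cannot be told apart, here and for the lists that follow. Both groups lay below WT, where Ins1 had 76000 ± 1904 CPM and Ins2 89720 ± 7188 CPM.

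The largest change of the list was in Vgf, the precursor of a family of secreted neuroendocrine peptides, at 30.5, 33.5 and 32.7 CPM in hIAPP_hCAST and 6.81, 5.97 and 7.51 CPM in rIAPP (log2 fold change 2.23 ± 0.127 SE, edgeR adjusted p = 6.69e-09). Pcsk1, the convertase that makes the first cuts in proinsulin, had 616, 474 and 533 against 151, 148 and 173 CPM (log2 fold change 1.78 ± 0.125 SE, edgeR adjusted p = 6.64e-08). The partner convertase Pcsk2 had 4584, 4634 and 5125 against 3115, 2815 and 3138 CPM, a smaller log2 difference of 0.66. Ero1lb, the oxidase that serves disulfide formation in proinsulin, rose by 1.42. Slc30a8, the zinc transporter of the granule, rose by 1.04. The granins Scg2 and Scg3 rose by 1.04 and 0.81, whereas the granins Chga and Chgb had -0.29 and 0.14 and did not pass. Cpe, the carboxypeptidase that trims prohormones, was at 0.01. Against WT, the list had 10 of 18 genes lower in rIAPP (12.4% of all genes were lower there), and in hIAPP_hCAST 2 higher and 5 lower (1.69% and 1.74% of all genes). In all, 3.43% of tested genes differed from WT in hIAPP_hCAST and 23.1% in rIAPP. These comparisons share the WT libraries, of which WT 2 and WT 3 were rich in ribosomal reads and kept 1667190 and 8796210 other counts.

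Pcsk1 and Scg2 are known to respond to cyclic AMP, and their promoters were searched for the palindromic response element TGACGTCA, which reads the same on both strands. Each held 1 match in the RefSeq window from 250 bases before to 50 after the start. The windows are shown because both genes are cargo genes that rose without overlap; they lie at chr13:75089607-75089906 on the forward strand (Pcsk1) and chr1:79439977-79440276 on the reverse strand (Scg2) in GRCm38.p6, with the match in capitals.
Pcsk1: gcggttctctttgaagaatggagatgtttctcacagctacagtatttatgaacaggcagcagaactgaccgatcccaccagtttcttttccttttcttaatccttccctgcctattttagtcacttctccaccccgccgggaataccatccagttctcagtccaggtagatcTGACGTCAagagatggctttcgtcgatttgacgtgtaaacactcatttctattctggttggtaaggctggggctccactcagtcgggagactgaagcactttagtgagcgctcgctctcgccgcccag
Scg2: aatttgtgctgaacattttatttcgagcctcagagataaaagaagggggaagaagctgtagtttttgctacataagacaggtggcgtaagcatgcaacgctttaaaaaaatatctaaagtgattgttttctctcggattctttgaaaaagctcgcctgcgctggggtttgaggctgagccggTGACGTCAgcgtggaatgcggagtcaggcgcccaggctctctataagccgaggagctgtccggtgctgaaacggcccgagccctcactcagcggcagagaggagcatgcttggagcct
The match starts 78 bases before the start of Pcsk1 and 68 bases before that of Scg2. Of the list, 13 genes had a window and 3 of them held the element (23.1%), the last being Chgb, which did not pass. A match describes these letters and does not show a site in use. Of all 27025 genes with a window of this length, 549 held it (2.03%). Among matched tested genes the share was 3.48%, among those higher in hIAPP_hCAST 3.86% and among those lower 2.06%.

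Genes of glucose sensing, beta-cell maturity and hormone receptors were higher in hIAPP_hCAST as well. Of 21 tested, 14 rose, 0 fell and 7 did not pass, with a median of 0.60 (all genes: 10% rose and 8.15% fell). Slc2a2, the glucose transporter of rodent beta cells, had 895, 605 and 661 against 236, 160.4 and 358 CPM (log2 fold change 1.52 ± 0.26 SE, edgeR adjusted p = 0.00136), and Glp1r, the receptor of the incretin GLP-1, 265, 224 and 294 against 98.2, 77 and 133 CPM; both were named after their values were seen. Gipr, the receptor of the incretin GIP, had 74.5, 69.7 and 82.6 against 36.7, 28.9 and 47.1 CPM. Ffar1, a fatty acid receptor that amplifies insulin secretion, had 39.4, 38.7 and 57.1 against 13.2, 8.74 and 19.1 CPM (log2 fold change 1.67 ± 0.227 SE, edgeR adjusted p = 0.000219). The inhibitory receptors rose too: Galr1, a galanin receptor, had 33.8, 23.9 and 29.2 against 8.43, 7.68 and 11.7 CPM and Adra2a, an adrenergic receptor, rose by 1.15. Pcx, the anaplerotic pyruvate carboxylase, rose by 1.11, and Ucn3, a peptide of mature beta cells, by 0.65. Nnat, a small proteolipid of beta cells, had 63.6, 69.9 and 63.7 against 24.9, 23.1 and 28.6 CPM, with 184, 166 and 169 CPM in WT. Gpr119 and Adcy8 had -0.36 and -0.53 and did not pass. The count was 12 to 15 under every alternative on counts, including without each library. Against WT, 15 of the 21 were lower and 2 higher in rIAPP (12.4% and 10.7% of all genes). In hIAPP_hCAST 3 were lower than WT and 1 higher (1.74% and 1.69% of all genes).

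**Figure D3:**
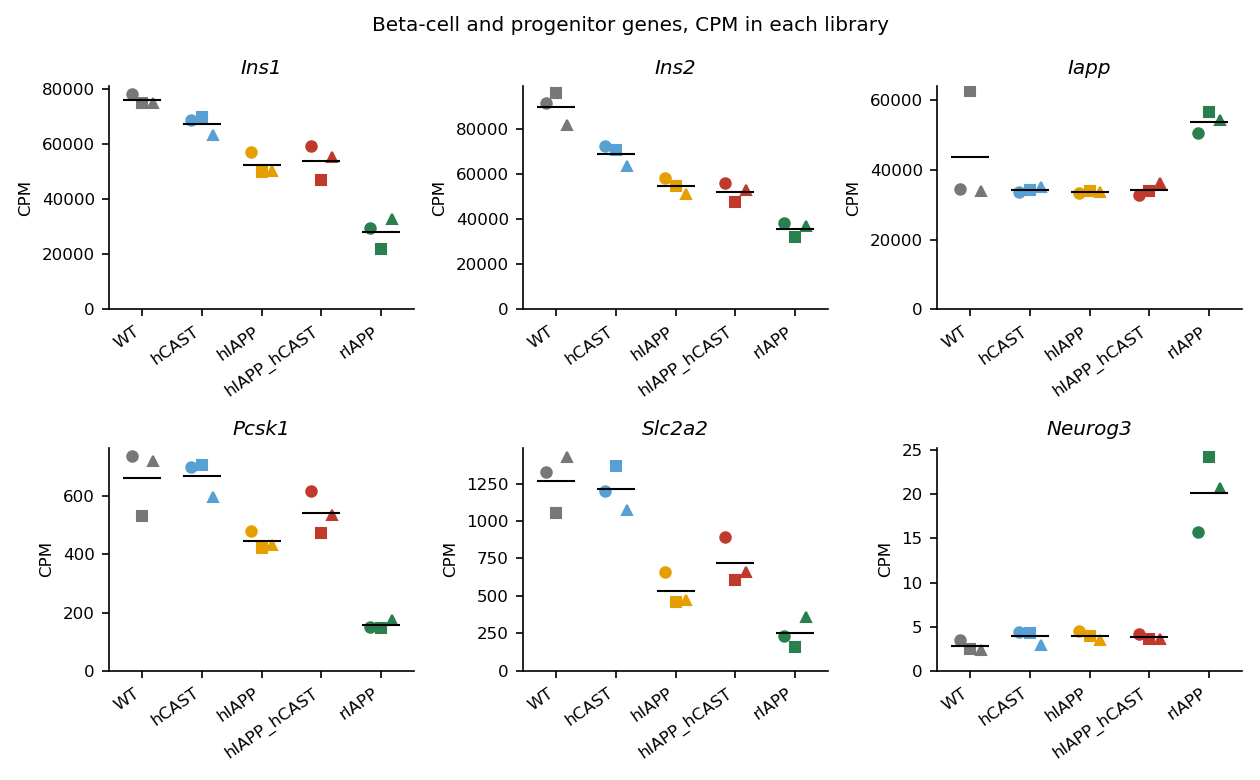
CPM of insulin, Iapp, Pcsk1, Slc2a2 and Neurog3 in each library, 3 per group, with black bars for group means and axes from 0. The hIAPP_hCAST libraries lie above the rIAPP libraries for Ins1, Ins2, Pcsk1 and Slc2a2 and below them for Iapp and Neurog3.

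Transcription factors of the beta cell moved by less. Of 21 tested 6 rose and 2 fell (all genes: 10% and 8.15%), with a median of 0.20. Pdx1, the master regulator of insulin transcription, had 154, 126 and 151 against 79, 73.9 and 88 CPM (log2 fold change 0.83 ± 0.113 SE, edgeR adjusted p = 6.92e-05). Mnx1 had 24.2, 18.3 and 21.5 against 9.91, 8.21 and 10.8 CPM and Nkx6-1 293, 251 and 292 against 202, 137 and 173 CPM, both factors that hold beta-cell identity. Rfx6 rose by 0.33 with no overlap. Isl1 and St18 rose by 0.42 and 0.39, and these calls were lost without hIAPP_hCAST 1 (and, for St18, without rIAPP 1), with adjusted p of up to 0.0504 and 0.059. Hnf4a fell by 0.35 (not without hIAPP_hCAST 1, rIAPP 1 or rIAPP 2, adjusted p of up to 0.0882), and Rfx3 by 0.26 (not without hIAPP_hCAST 2 or 3 or rIAPP 2 or 3, up to 0.209). Mafa, an activator of insulin transcription, had 70.2, 58.6 and 169 against 44, 34.4 and 62.9 CPM and did not pass, with hIAPP_hCAST 3 above the other libraries.

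Of 17 channel genes 5 rose and 3 fell (3 and 3 in a fit of the 2 groups alone), against 10% and 8.15% of all tested genes. Both subunits of the ATP-sensitive potassium channel rose: Kcnj11 had 173, 166 and 182 against 97.8, 71.1 and 108 CPM (log2 fold change 0.90 ± 0.104 SE, edgeR adjusted p = 1.25e-05), and Abcc8 1208, 1068 and 1164 against 516, 383 and 605 CPM. Cacna2d1, an auxiliary subunit of calcium channels, and the sodium channel Scn9a fell by 0.48 and 0.49, while the sodium channel Scn3a rose by 0.46 and the potassium channel Kcnk3 by 0.54. Of 23 genes of granule exocytosis 7 rose and 3 fell (4 and 3 in a fit of the 2 groups alone), with a median of 0.10 that was 0.01 without hIAPP_hCAST 3. The priming factors moved in opposite directions: Cadps had 242, 239 and 200.5 against 103, 88.4 and 118 CPM and Cadps2 17.4, 19 and 15.4 against 30.3, 33.8 and 28.2 CPM (adjusted p = 1.04e-05 and 2.65e-05). Sytl4, the granule protein granuphilin, had 621, 684 and 455 against 219, 154 and 177 CPM (log2 fold change 1.68 ± 0.191 SE). Rims2, a scaffold of release sites, rose by 0.40, and the effector Rph3al fell by 0.42. The SNARE genes Snap25 and Vamp2 had 0.06 and -0.09 and did not pass.

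Genes of endocrine progenitors and of dedifferentiated beta cells were lower in hIAPP_hCAST for 6 of 14 tested and higher for 2 (all genes: 8.15% and 10%). The median of the list was -0.26 (-0.39 without rIAPP 3 and -0.64 with no filter on low counts). The rises numbered 1 without rIAPP 1 or rIAPP 3. Neurog3, the proendocrine factor, had 4.19, 3.65 and 3.63 against 15.7, 24.2 and 20.7 CPM (log2 fold change -2.39 ± 0.189 SE, edgeR adjusted p = 2.15e-07), with 2.78 ± 0.623 CPM in WT. Fev, a factor of endocrine precursors, had 1.4, 1.18 and 1.17 against 3.65, 5.76 and 3.51 CPM. Gc, the vitamin D binding protein, which is also an alpha-cell gene, had 154, 117 and 126 against 569, 604 and 506 CPM (log2 fold change -2.08 ± 0.121 SE, edgeR adjusted p = 1.22e-08). Serpina7, a thyroxine-binding serpin, fell by 1.83. Sox9, a factor of ducts and progenitors, had 1.31, 1.49 and 0.518 against 2.75, 2.56 and 2.22 CPM and lost its call without rIAPP 1 (adjusted p = 0.0658). The risers were Tph2, an enzyme of serotonin synthesis at 2.05, 1.26 and 2.95 against 0.604, 0.32 and 0.419 CPM, and the peptide gene Cck, which rose by 3.00 (not without hIAPP_hCAST 1, rIAPP 1 or rIAPP 3, adjusted p of up to 0.133). Aldh1a3, a marker of failing beta cells, was at 0.06 and did not pass. Neurog3, Fev and Gc, among the members with the smallest p, did not overlap between the groups and were higher in every rIAPP library. Of the 14 tested members 9 did not overlap, 3 of them higher in hIAPP_hCAST. Among all tested genes 15.4% were lower in hIAPP_hCAST without overlap and 18.4% higher.

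Of 23 genes that beta cells normally keep low, 7 fell and 0 rose (all genes: 8.15% and 10%), with a median of -0.38. Without hIAPP_hCAST 3, 5 fell and the median was -0.23. The count was 2 without rIAPP 2, 3 without rIAPP 1 or rIAPP 3, and 2 in a fit of the 2 groups alone or without the ribosomal-rich libraries. Cxcl12, a chemokine of stromal cells, had 33, 29.2 and 23 against 46.1, 54 and 60.6 CPM, and Mgll, a monoglyceride lipase, 48.3, 43.3 and 34.2 against 69.3, 74 and 75.4 CPM (adjusted p = 0.000345 and 0.00234). Fcgrt, Nfib, Pdgfra and Oat also passed, and each lost its call without at least 1 rIAPP library, with adjusted p of up to 0.0696, 0.0696, 0.0865 and 0.114. hIAPP_hCAST 3 was the lowest library for each of these 6 genes. The lactate genes Ldha and Slc16a1 had -0.21 and -0.51 and did not pass.

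The other islet hormones did not differ beyond the spread. Gcg, glucagon, had 23770, 25160 and 25590 against 26550, 30110 and 23900 CPM (log2 fold change -0.11 ± 0.0973 SE, edgeR adjusted p = 0.483). Sst, somatostatin, was at 0.01 and Ppy, pancreatic polypeptide, at 0.34 (adjusted p = 0.966 and 0.52). Of 14 alpha-cell genes 3 rose and 3 fell (all genes: 10% and 8.15%). The falls numbered 1 to 2 when a library was left out (1 without hIAPP_hCAST 3, rIAPP 1 or rIAPP 2). Slc7a2, a cationic amino acid transporter, had 461, 533 and 343 against 150.4, 115 and 170.1 CPM, and Ttr, transthyretin, rose by 0.59. Slc38a5, a glutamine transporter, had 15.8, 31.7 and 6.81 against 69.7, 84.5 and 66.5 CPM and lost its call in 5 of 6 fits with a library left out (all but the one without hIAPP_hCAST 2, adjusted p of up to 0.1), and Dpp4 fell by 0.34 with a call lost in 5 of 6 (all but the one without hIAPP_hCAST 1, adjusted p of up to 0.12). The factor Irx2 was at -0.25 and did not pass. Of 8 delta and PP cell genes, the somatostatin receptor Sstr1 fell (0.465, 1.6 and 0.609 against 3.71, 4.91 and 2.77 CPM) and the factor Etv1 rose by 0.41, a call lost without hIAPP_hCAST 1 or any rIAPP library (adjusted p of up to 0.275).

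Macrophage genes rose together. Of the 26 markers tested, 18 passed as higher and 0 as lower (all genes: 10% and 8.15%), with a median of 1.16. The count of rises was 13 to 20 under the alternatives on counts, at 20 without hIAPP_hCAST 3. The list summed to 714.8, 503.8 and 412.2 CPM in hIAPP_hCAST and 207.3, 186.9 and 245.5 CPM in rIAPP, without overlap. Lyz2, the lysozyme of myeloid cells, had 143, 80.8 and 61 against 16.2, 14.1 and 19.7 CPM (log2 fold change 2.49 ± 0.27 SE, edgeR adjusted p = 5.67e-05). Its near-identical copy Lyz1 had 1.01, 0.421 and 0.248 CPM in hIAPP_hCAST and 0.0107 ± 0.0186 CPM in rIAPP, and how reads are split between the 2 copies is uncertain. Ms4a7, a membrane protein of tissue macrophages, had 10.7, 7.21 and 8.61 against 2.91, 3.52 and 3.54 CPM and Fcgr3, an Fc receptor, 10.3, 7.95 and 5.63 against 2.58, 2.98 and 2.29 CPM. Cd68, a lysosomal membrane protein, had 11.4, 7.41 and 5.3 against 2.83, 2.45 and 3.03 CPM. Csf1r, the growth factor receptor of the lineage, rose by 0.86, and Emr1, the F4/80 antigen, by 1.27. Mrc1 and Cd14 had -0.11 and -0.34 and did not pass.

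Set beside WT, these genes fell into different patterns. Lyz2 had 13.7 ± 1.84 CPM in WT, close to the rIAPP libraries, and was higher in hIAPP_hCAST than in WT (log2 fold change 2.75 ± 0.304 SE, edgeR adjusted p = 0.000896). Ms4a7 likewise rose over WT by 1.41 (adjusted p = 0.00103), with rIAPP at -0.01. C1qa, a subunit of the complement starter C1q, had 119.7, 99.7 and 89.6 CPM in hIAPP_hCAST, 30.8, 26.1 and 39.7 in rIAPP and 87.1, 46.6 and 72.8 in WT. It was lower in rIAPP than in WT (-1.16 ± 0.197 SE, adjusted p = 0.000828) and did not pass between hIAPP_hCAST and WT (0.50 ± 0.19 SE, adjusted p = 0.17). Fcer1g, an adaptor of Fc receptors, behaved alike, at -0.74 in rIAPP over WT (adjusted p = 0.014) and 0.50 in hIAPP_hCAST over WT (adjusted p = 0.155). Over the list, 14 of 26 were higher than WT and 0 lower in hIAPP_hCAST, and 0 higher and 2 lower in rIAPP; over all genes 1.69% were higher than WT in hIAPP_hCAST and 12.4% lower in rIAPP.

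Genes of lipid-laden and amyloid-associated macrophages rose in 7 of 19 and fell in 1 (all genes: 10% and 8.15%). The median of the list was 0.22 (0.46 without hIAPP_hCAST 3 and 0.15 without hIAPP_hCAST 1). The rises numbered 4 without hIAPP_hCAST 1, rIAPP 1 or rIAPP 2 and 9 without hIAPP_hCAST 3. Apoe, the lipid carrier, had 1103, 901 and 661 against 422, 361 and 412 CPM (log2 fold change 1.16 ± 0.155 SE, edgeR adjusted p = 7.71e-05). Trem2, a lipid-sensing receptor, had 9.77, 4.75 and 3.61 against 0.961, 1.17 and 1.55 CPM (log2 fold change 2.29 ± 0.369 SE, edgeR adjusted p = 0.00044). Mertk, a receptor for the uptake of dying cells, had 11.2, 13.1 and 8.5 against 6.45, 5.12 and 6.41 CPM. Atp6v0d2, a proton pump subunit, had 108 counts in hIAPP_hCAST and 1 in rIAPP, which gives a ratio of 71.2 (counting interval 12.5 to 2840). Cst7, cystatin F, had 121 counts against 3, a ratio of 26.6 (8.89 to 131). The call of Cst7 was lost without hIAPP_hCAST 1 or any rIAPP library, with adjusted p of up to 0.149. Gpnmb, a glycoprotein of lysosome-rich macrophages, had 7.83, 6.2 and 2.5 against 2.09, 1.81 and 1.77 CPM. It passed at an adjusted p of 0.0199 and kept that only when hIAPP_hCAST 3 was left out (up to 0.0818 otherwise). Clec7a had 4.51, 2.5 and 2.1 against 1.26, 0.746 and 1.51 CPM, a call lost without hIAPP_hCAST 1, rIAPP 1 or rIAPP 2 (up to 0.0889). The pattern was not uniform: Spp1, Lpl, Lgals3 and Fabp5, also of this class, had log2 fold changes of -0.10, -0.15, 0.32 and -0.42 and did not pass.

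The complement list split. Of 17 tested genes 6 rose and 6 fell (all genes: 10% and 8.15%), with a median of -0.45. Without hIAPP_hCAST 3, 7 rose and 6 fell, and the median was -0.16. The risers were the C1q subunits C1qa, C1qb and C1qc with the receptors C3ar1, C5ar1 and Itgam, all of which macrophages express, and numbered 3 without hIAPP_hCAST 1 or rIAPP 1 and 3 in a fit of the 2 groups alone. C1qb had 26.6, 23.1 and 16.9 against 9.55, 9.81 and 10.2 CPM and C1qc 27.6, 21.2 and 16.7 against 7.19, 7.04 and 9.96 CPM. The fallers were soluble components and regulators. C3, the central component, had 11.9, 15.1 and 9.04 against 49.98, 29.5 and 36.6 CPM (log2 fold change -1.71 ± 0.277 SE, edgeR adjusted p = 0.000937). Cfb, factor B of the alternative pathway, had 3.42, 3.03 and 1.98 against 7.49, 7.46 and 8.06 CPM, and Serping1, the C1 inhibitor, 86.5, 85.6 and 62.2 against 154, 166 and 136 CPM (adjusted p = 6.75e-05 and 0.000901). C2 and C1ra fell by 0.89 and 1.04. Cfp, properdin, had 1.2, 1.46 and 1.31 against 2.94, 2.03 and 2.77 CPM, and its fall was not called without hIAPP_hCAST 1, rIAPP 1 or rIAPP 3 (adjusted p of up to 0.0965). Against WT, C3 was higher in rIAPP (1.31 ± 0.306 SE, adjusted p = 0.00823) and did not pass in hIAPP_hCAST (-0.40 ± 0.307 SE, adjusted p = 0.542).

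MHC class II genes, which present antigen on dendritic cells, B cells and activated macrophages, were lower in hIAPP_hCAST while macrophage markers were higher. Of 12 tested, 7 fell and only H2-Ea-ps rose (all genes: 8.15% fell and 10% rose), with a median of -1.17. The falls numbered 3 without rIAPP 1 and 4 without rIAPP 3, and 5 without hIAPP_hCAST 2 or 3. H2-Ab1, a beta chain, had 23.3, 19.5 and 14.9 against 55.5, 60.03 and 59.5 CPM (log2 fold change -1.60 ± 0.193 SE, edgeR adjusted p = 5.88e-05). H2-Aa, its alpha chain partner, had 28.2, 24.6 and 20.5 against 74.1, 66.5 and 75.9 CPM, and Cd74, the invariant chain, 46.5, 45.8 and 38.5 against 132, 107 and 132 CPM (adjusted p = 0.000583 and 0.00053). These 3 genes fell under all 13 alternatives on counts. H2-Eb1 had means of 0.323 ± 0.0727 and 0.882 ± 0.22 CPM and lost its call without rIAPP 1 (adjusted p = 0.0558), and H2-DMa fell by 0.69, a call lost without hIAPP_hCAST 1, rIAPP 1 or rIAPP 3 (up to 0.0815). H2 genes are similar in sequence, so their split depends on the counting of shared reads. In WT, H2-Ab1 had 47.5, 55.4 and 53.9 CPM, and hIAPP_hCAST was below it (-1.42 ± 0.203 SE, adjusted p = 0.00273) whereas rIAPP did not pass (0.18 ± 0.2 SE, adjusted p = 0.573). Cd86, a costimulatory ligand, was at 0.76 and did not pass.

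**Figure D4:**
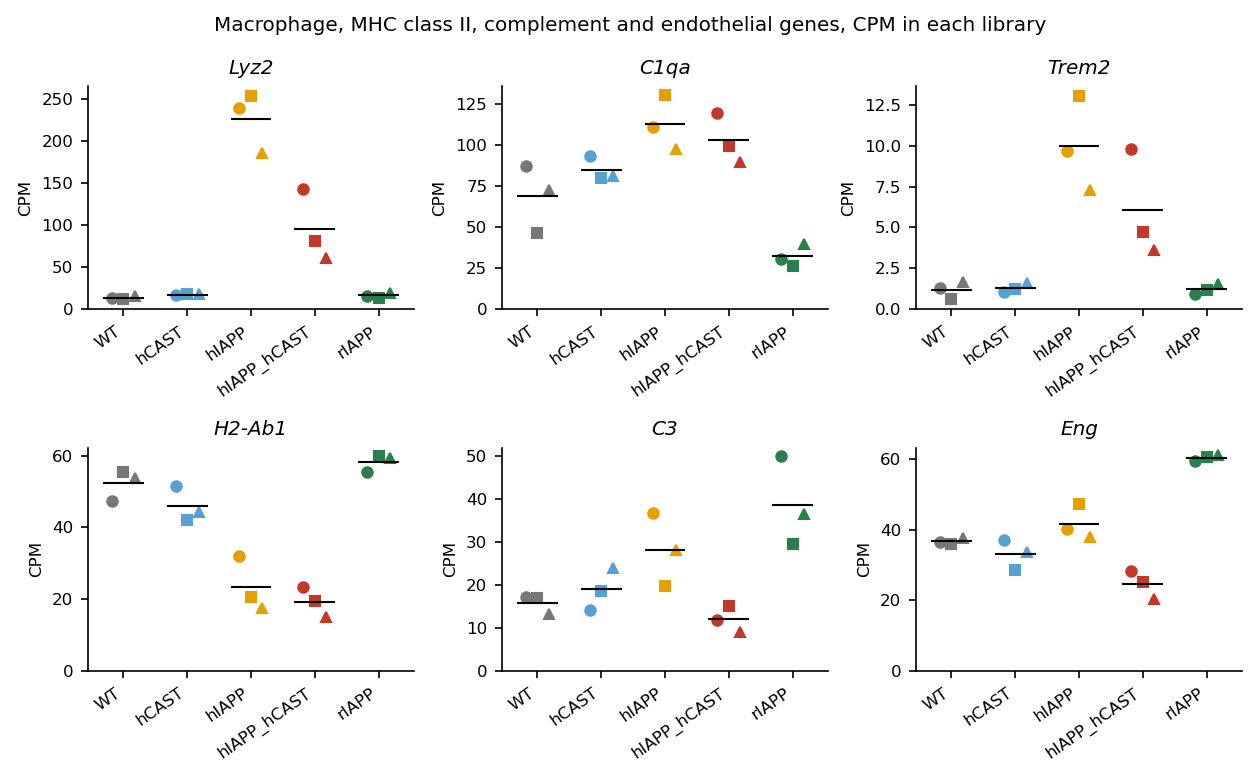
CPM of Lyz2, C1qa, Trem2, H2-Ab1, C3 and Eng in each library, 3 per group, with black bars for group means and axes from 0. hIAPP_hCAST lies above rIAPP for the 3 macrophage genes in the upper row and below it for the 3 genes in the lower row.

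Of 16 tested chemokines and receptors (11 more had too few counts), 2 rose and 5 fell (all genes: 10% and 8.15%), with a median of -0.62. Without hIAPP_hCAST 3, 2 rose and 4 fell, and the median was -0.30. The fractalkine axis moved in opposite directions. Its receptor Cx3cr1, on macrophages, had 27, 22.4 and 16.5 against 7.69, 8.21 and 10.7 CPM, and its ligand Cx3cl1 28.6, 28.6 and 36.2 against 73.5, 77.3 and 72.3 CPM (log2 fold change -1.25 ± 0.121 SE, edgeR adjusted p = 1.71e-06). Ccr2, the receptor of recruited monocytes, had 2.08, 1.24 and 0.654 against 5.46, 5.97 and 7.25 CPM (log2 fold change -2.25 ± 0.395 SE, edgeR adjusted p = 0.0009). Cxcl13, a B-cell attractant and the other riser, had 0.794, 1.26 and 0.676 against 0.22, 0.213 and 0.0645 CPM. Cxcl14, an epithelial chemokine, fell by 2.09. Of 16 genes of interleukin-1 signalling and the inflammasome 0 rose and 2 fell: the alarmin Il33, at 0.93, 1.21 and 0.428 against 2.94, 3.31 and 1.77 CPM, and the pore-former Gsdmd, by 0.50. Il1b, Nlrp3 and Pycard had -0.33, -0.19 and -0.01 and did not pass, while Nlrc4 passed without rIAPP 3 and Il1r1 without hIAPP_hCAST 2.

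Of 20 interferon and MHC class I genes 1 rose and 5 fell (all genes: 10% and 8.15%), with 2 to 3 falls when any library was left out. The riser was Usp18, a brake on interferon signalling, at 52.8, 59.4 and 33.9 against 12.6, 9.92 and 13.4 CPM (log2 fold change 1.99 ± 0.188 SE, edgeR adjusted p = 4.78e-06). Its WT level was 46.8, 42.8 and 39.9 CPM, so rIAPP was the low group (-1.83 over WT, adjusted p = 1.39e-05). Rsad2, an antiviral enzyme, had 4.68, 3.2 and 3.7 against 7.6, 8.74 and 6.83 CPM, and Psmb9 and Psmb8, subunits of the immunoproteasome, fell by 0.58 and 0.56 (Psmb8 with an adjusted p of up to 0.0601, without hIAPP_hCAST 1 or rIAPP 1). Tap1 and Ifit3 lost their calls without any 1 of the 6 libraries (up to 0.201 and 0.146). Ifit1 and the class I genes H2-K1 and H2-D1 had -0.06, 0.02 and 0.04 and did not pass. Lymphocyte genes were sparse, with 5 of 15 tested. Of these 2 rose and 0 fell, with a median of 0.44, and without hIAPP_hCAST 3 the same counts had a median of 0.37. Cd79a, of the B-cell receptor, had 35.9, 34.8 and 35.1 against 10.2, 10.1 and 12.2 CPM (log2 fold change 1.69 ± 0.171 SE, edgeR adjusted p = 4.44e-06), but Cd79b, its partner in that receptor, had 11 counts against 12. Cd4, which macrophages also express, had 1.42, 1.01 and 1.04 against 0.329, 0.746 and 0.548 CPM, a call lost without hIAPP_hCAST 1, rIAPP 1 or rIAPP 3 (up to 0.189), and Cd3e had 3 against 4 counts.

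Endothelial genes were lower in hIAPP_hCAST in 13 of 16 and higher in 0 (all genes: 8.15% and 10%), with a median of -0.70. The falls numbered 12 without hIAPP_hCAST 3 and 10 without rIAPP 1, the fewest under the alternatives on counts. Eng, an accessory receptor of TGF-beta, had 28.4, 25.2 and 20.5 against 59.5, 60.5 and 61.2 CPM (log2 fold change -1.29 ± 0.115 SE, edgeR adjusted p = 7.3e-07). Plvap, of the fenestrated capillaries of islets, had 215, 221 and 180.4 against 344, 337 and 332 CPM, Tek, the angiopoietin receptor, 23.8, 20.1 and 14.9 against 43.1, 40.8 and 39.9 CPM, and Egfl7 and Cdh5 fell by 0.86 and 0.78. The list summed to 982.2, 890.9 and 760.6 CPM in hIAPP_hCAST and 1366, 1337 and 1382 CPM in rIAPP, with no overlap. Kdr, the main VEGF receptor, fell by 0.45, and Emcn by 0.57, while Vegfa was at 0.03 and did not pass. Against WT, 10 of 16 were higher in rIAPP (10.7% of all genes) and 2 lower in hIAPP_hCAST (1.74% of all genes).

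Matrix genes fell in 10 of 26 and rose in 2 (all genes: 8.15% and 10%), with a median of -0.61. But the falls numbered 4 without rIAPP 1, 5 without rIAPP 3 and 1 in a fit of the 2 groups alone. Without hIAPP_hCAST 3, 9 fell and the median was -0.35. Loxl1, a lysyl oxidase of elastic fibres, had 4.68, 6.54 and 3.74 against 11.6, 11.5 and 12.4 CPM (log2 fold change -1.25 ± 0.174 SE, edgeR adjusted p = 8.1e-05). Lum and Bgn, small proteoglycans, had 9.71, 7.8 and 2.84 against 22.6, 23.1 and 20.4 CPM and 20.4, 20.9 and 8.25 against 40.1, 48.3 and 41.2 CPM. Sparc, a matricellular protein, had 293, 264 and 165 against 414, 409 and 385 CPM. Col1a2, a chain of fibrillar collagen, had 105, 126 and 44.3 against 264, 236 and 226 CPM and an adjusted p of 0.0532 without rIAPP 1. Loxl2, another lysyl oxidase, rose by 0.56, and Fn1, fibronectin, by 0.71, a call lost without hIAPP_hCAST 1 or 2 or rIAPP 1 or 2 (up to 0.19). Of 13 pericyte and stellate genes 2 fell and 0 rose, with a median of -0.26, and without hIAPP_hCAST 3, 2 fell, 1 rose and the median was -0.06. The fallers were the potassium channel Kcnj8, with 3.69, 3.51 and 2.79 against 11.5, 12.3 and 10.7 CPM, and Pdgfra, whose call was lost as given above. Pdgfrb, Acta2 and Cspg4 had 0.02, -0.30 and -0.07 and did not pass. Of 11 Schwann-cell genes 0 passed by edgeR and 0 by DESeq2, and 2 had an unadjusted p under 0.05. Their median was -0.12; without hIAPP_hCAST 3 it was 0.06 and 1 gene passed as higher, as 1 did without hIAPP_hCAST 1. Gfra3, a neurotrophic receptor, came nearest, at 0.53 (edgeR adjusted p = 0.0545).

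**Figure D5:**
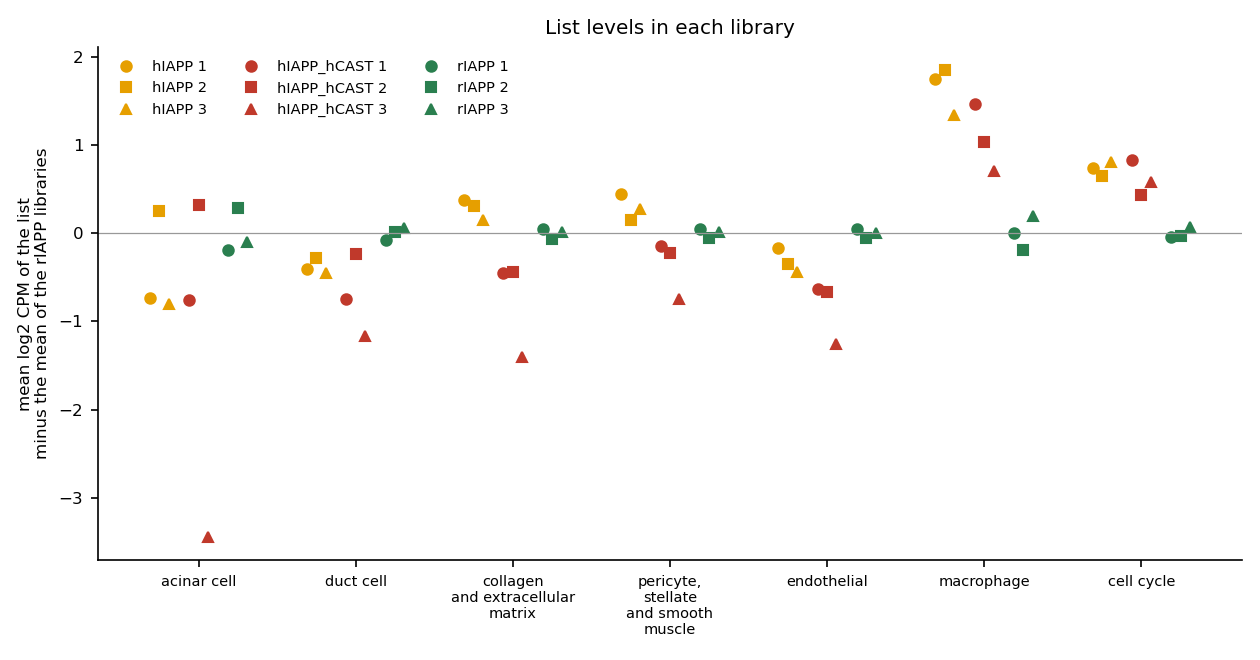
Mean log2 CPM of 7 gene lists in each hIAPP, hIAPP_hCAST and rIAPP library, minus the mean of the 3 rIAPP libraries. hIAPP_hCAST 3 (red triangle) is the lowest of the 9 libraries for the acinar, duct, matrix, pericyte and endothelial lists, and macrophage genes are above rIAPP in all 6 libraries with human IAPP.

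Acinar genes did not differ beyond the spread, with 1 of 29 passing at a median of -0.63 that was -0.11 without hIAPP_hCAST 3 and -1.57 without hIAPP_hCAST 2. The 1 that passed was Bhlha15, a factor of secretory cells also found in islets, at 27.9, 38 and 38.2 against 59, 68.3 and 61.2 CPM (adjusted p = 0.00101). Pnlip, pancreatic lipase, had 11310, 22390 and 1676 CPM in hIAPP_hCAST against 16690, 23950 and 17110 CPM. Of 12 duct genes 6 fell and 1 rose (all genes: 8.15% and 10%), and 3 fell without hIAPP_hCAST 3 or rIAPP 3. Tspan8, a tetraspanin, had 17.7, 17 and 17.3 against 44.3, 57.9 and 49.99 CPM (log2 fold change -1.54 ± 0.162 SE, edgeR adjusted p = 7.4e-06), and hIAPP_hCAST 3 was level with the rest of its group. The keratins parted, Krt18 falling by 0.52 and Krt19 rising by 0.91 (adjusted p of 0.0555 without rIAPP 1). Cftr was at -0.32 and did not pass.

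Cell cycle genes were higher in hIAPP_hCAST in 13 of 31 and lower in 1 (all genes: 10% and 8.15%), with a median of 0.61. The rises numbered 7 without rIAPP 1 and 8 without hIAPP_hCAST 1. Ccnd2, the D cyclin of beta cells, had 924, 804 and 748 against 539.5, 479 and 583 CPM (log2 fold change 0.63 ± 0.104 SE, edgeR adjusted p = 0.000412). The mitotic genes were low in all libraries. Top2a, a topoisomerase of dividing cells, had 15.9, 7.47 and 7.93 against 3.54, 3.09 and 3.96 CPM, Cdk1, the mitotic kinase, 2.33, 2.3 and 1.65 against 0.851, 0.746 and 0.645 CPM, and Kif11, a spindle motor, 4.93, 2.47 and 2.95 against 1.24, 1.17 and 1.48 CPM. Mki67, the proliferation marker, rose by 1.04. Mcm2, a subunit of the replicative helicase, fell, at 10.9, 9.1 and 12 against 17.2, 17.5 and 18.3 CPM (adjusted p = 0.000384), while Mcm4, Mcm6 and Mcm7 of the same complex were between 0.03 and 0.10 and did not pass. Against WT, 7 of 31 were lower and 1 higher in rIAPP (12.4% and 10.7% of all genes). In hIAPP_hCAST 0 were higher than WT and 1 lower (1.69% and 1.74% of all genes). Bulk RNA does not tell which cells hold these transcripts.

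Lysosomal genes rose in 13 of 22 with 0 lower (all genes: 10% and 8.15%), by small amounts (median 0.27). They rose in 9 to 12 when a library was left out. Ctsl, Ctsb and Ctsz, cathepsin proteases, had log2 fold changes of 0.39, 0.47 and 0.52. Lamp2, a membrane protein of lysosomes, had 322, 314 and 278 against 221, 214 and 219.6 CPM (adjusted p = 0.00177). The autophagy genes Atg5, Atg7, Becn1 and Sqstm1 had 0.00, 0.11, 0.12 and 0.05 and did not pass. Macrophage genes rose in the same libraries; their part in the lysosomal rise was not tested.

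Stress genes moved little. For comparison with the counts of this paragraph, 10% of all tested genes rose and 8.15% fell. Of 25 genes of the unfolded protein response 0 rose and 2 fell, with a median of -0.12 that was -0.02 without hIAPP_hCAST 3. The falls numbered 1 to 4 when a library was left out (4 without hIAPP_hCAST 3) and 5 in a fit of the 2 groups alone. Eif2ak3, the sensor PERK, had 89.5, 87.3 and 108 against 134, 139.5 and 129 CPM (log2 fold change -0.50 ± 0.113 SE, edgeR adjusted p = 0.00519), lower in hIAPP_hCAST. Chac1, a late target of the pathway, had 12.9, 17.1 and 23.5 against 36.7, 30.4 and 32.3 CPM, a call lost without 5 of the 6 libraries in turn (all but hIAPP_hCAST 3; up to 0.165). Hspa5, the chaperone BiP, was at -0.28, Ddit3, the factor CHOP, at -0.26 and Atf4 at -0.28, and none of the 3 passed. Of 17 targets of p53 2 rose and 1 fell, with 1 to 3 rises (3 without hIAPP_hCAST 3) and 0 to 1 falls when a library was left out. Trp53inp1, a stress-induced nuclear protein, rose by 0.37 and kept its call in each of these fits. Ccng1, cyclin G1, rose by 0.32, a call lost without hIAPP_hCAST 1, hIAPP_hCAST 2, rIAPP 1 or rIAPP 3 (adjusted p of up to 0.137). Sesn2, a sestrin, fell by 0.39, a call lost without 5 of the 6 libraries in turn (all but hIAPP_hCAST 3; up to 0.168). Cdkn1a was at 0.08 and did not pass. Of 15 antioxidant genes 2 rose and 1 fell, and 0 rose without hIAPP_hCAST 3 or any 1 rIAPP library. Gclm, of glutathione synthesis, fell by 0.27. The risers were Nqo1, a quinone reductase, at 6.65, 4.97 and 6.11 against 2.22, 2.24 and 2.58 CPM, and Nfe2l2, the factor NRF2, by 0.25. Both calls were lost without 5 of the 6 libraries in turn (all but hIAPP_hCAST 2; adjusted p of up to 0.115 and 0.174). Of 16 immediate-early genes 1 rose and 1 fell, and 2 fell without hIAPP_hCAST 2. Nr4a2, a nuclear receptor, fell (3.42, 4.21 and 2.88 against 7.55, 9.06 and 8.67 CPM), and Npas4, a calcium-dependent factor, had 8.54, 14.7 and 19.9 against 2.69, 3.31 and 3.45 CPM with a call lost without 5 of the 6 libraries in turn (all but hIAPP_hCAST 1; up to 0.153).

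The lists of glycolysis and of the respiratory chain had medians of -0.08 and 0.05 (all genes: 0.01, with 10% higher and 8.15% lower). Of 21 genes of glycolysis and HIF1 targets 1 fell (Car9, 0.164, 0.225 and 0.316 against 0.824, 1.28 and 0.516 CPM) and 0 rose, with 3 falls without hIAPP_hCAST 2 and 1 rise without hIAPP_hCAST 3. Of 25 nuclear respiratory genes 2 rose, Sdhd by 0.32 and Cox6c by 0.29; neither kept its call without rIAPP 2 or rIAPP 3 (adjusted p of up to 0.0888 and 0.0774), and 2 genes fell without hIAPP_hCAST 3. Of 21 genes of cholesterol synthesis and export 4 rose and 0 fell, with a median of 0.22 (all genes: 10% rose, median 0.01). In this list 17 genes had a positive log2 fold change. Under the alternatives on counts the median was 0.15 to 0.27 and the rises numbered 3 to 6, and 1 gene fell without hIAPP_hCAST 3. Among the risers were the exporters Abca1, at 383, 442 and 385 against 294, 246 and 299 CPM, and Abcg1, by 0.30. The carrier Stard4 rose by 0.45 (not without hIAPP_hCAST 1, rIAPP 1 or rIAPP 2, adjusted p of up to 0.146).

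The 12 largest rises held, beside Sema5a, Snhg18 and Snord123, 6 genes that were lower in rIAPP than in WT by more than 2 on the log2 scale (Angptl7, Kcnj12, Slc14a2, Myo3a, Scnn1g and Ceacam10). Angptl7, a secreted angiopoietin-like protein, had 50.1, 82.1 and 32.2 against 2.94, 0.746 and 3.87 CPM (log2 fold change 4.23 ± 0.467 SE, edgeR adjusted p = 9.63e-05), with 49.1, 34 and 35.4 CPM in WT (rIAPP over WT -3.82 ± 0.482 SE, adjusted p = 0.000199). Kcnj12, an inward rectifier, had 12.4, 12.1 and 23.4 against 1.59, 1.6 and 1.42 CPM, with 27, 18.3 and 32.7 CPM in WT. Slc14a2, a urea transporter, had 15.3, 10.9 and 21.5 against 1.15, 1.07 and 2.29 CPM, and WT was above both at 38, 25.8 and 72.7 CPM. Myo3a, a myosin of sensory cells, and Scnn1g, a subunit of the epithelial sodium channel, rose by 4.14 and 2.74, with WT means of 2.73 and 23.5 CPM. Map3k19, a kinase, had 11.8, 19 and 12.3 against 2.17, 2.67 and 2 CPM and was above WT in hIAPP_hCAST (1.63 ± 0.234 SE, adjusted p = 0.00161) and below it in rIAPP (-1.08 ± 0.265 SE, adjusted p = 0.0073). Fcrls, a receptor of microglia and some macrophages, had 2.85, 1.46 and 1.38 against 0.165, 0.32 and 0.387 CPM and 0.187, 0 and 0.333 CPM in WT. Ceacam10, an adhesion molecule, rose by 3.09, from a mean of 0.174 ± 0.189 CPM in rIAPP.

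The difference between the 2 groups with human IAPP is hIAPP_hCAST minus hIAPP, in which the rIAPP libraries cancel. In this contrast 70 genes passed (0.449%), 14 higher (0.0898%) and 56 lower (0.359%); a fit of these 2 groups alone passed 2, and leaving out a library gave 16 to 172 (16, 18 and 21 without hIAPP 1, 2 and 3; 114, 172 and 78 without hIAPP_hCAST 1, 2 and 3). Beside Tram1l1, 1700006A11Rik and H2-Ea-ps, Edil3, an integrin ligand, was higher in hIAPP_hCAST, at 60.1, 41.6 and 36.6 CPM against 17.1, 20.1 and 13.6 CPM in hIAPP and 7.91, 8.64 and 7.16 CPM in rIAPP (log2 fold change over hIAPP 1.45 ± 0.176 SE, edgeR adjusted p = 0.00194). Cdon, a cell-surface receptor of hedgehog signalling, had 57.3, 56.5 and 54.7 CPM, 39.4, 40.7 and 39.6 CPM in hIAPP and 22.1, 20.4 and 20.9 CPM in rIAPP. Lancl3, a LanC-like protein, was higher than in both groups, by 0.79 over hIAPP and 0.53 over rIAPP. Loxl1, Eng, Cygb (a globin of stellate cells) and Mgp (a matrix inhibitor of calcification) were lower than in both. Cygb had 14.1, 14.3 and 10.6 CPM, 25.3, 23.5 and 28.3 CPM in hIAPP and 27.8, 28.7 and 27.5 CPM in rIAPP, and Mgp 56.7, 50.4 and 36.4, 106, 91.7 and 84.2 and 71, 71.1 and 73.2 CPM.

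Between hIAPP_hCAST and hIAPP, 1 of the 26 macrophage markers was lower and 0 were higher by edgeR, 8 differed by DESeq2 and 15 had an unadjusted p under 0.05. The list summed to 892.5, 1019 and 707.5 CPM in hIAPP, and hIAPP_hCAST 1, at 714.8 CPM, lay above the lowest of these. The marker that passed was Ms4a7, with 16.6, 15.8 and 14.8 CPM in hIAPP (log2 fold change -0.83 ± 0.153 SE, edgeR adjusted p = 0.0203). Lyz2 had 239.7, 253 and 186 CPM and missed the threshold (-1.25 ± 0.247 SE, adjusted p = 0.0567). Apoe and Gpnmb, of the lipid-associated list, were lower than in hIAPP, where Apoe had 1513, 1667 and 1401 CPM (-0.78 ± 0.153 SE, adjusted p = 0.0382) and Gpnmb 15.2, 26.3 and 16.3 CPM (-1.81 ± 0.355 SE, adjusted p = 0.0463). The calls of Ms4a7, Apoe and Gpnmb were lost without any 1 hIAPP library (for Apoe and Gpnmb also without hIAPP_hCAST 2), with adjusted p of up to 0.122, 0.152 and 0.159. C1qb (-0.71 ± 0.158 SE, adjusted p = 0.0568) and Trem2 (-0.73 ± 0.306 SE, adjusted p = 0.362) did not pass. Of the beta-cell lists of cargo, maturity, transcription factors, channels and exocytosis, 0 of 100 genes passed between hIAPP_hCAST and hIAPP by edgeR and 4 by DESeq2, 16 had an unadjusted p under 0.05, and the medians were 0.05 to 0.12. Ins1 had 57080, 49730 and 50180 CPM in hIAPP (log2 fold change 0.04 ± 0.128 SE, adjusted p = 0.949) and Pcsk1 479, 423 and 431 CPM (0.28 ± 0.121 SE, adjusted p = 0.369).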

How the data were processed

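Islet RNA of 15 libraries in 5 groups was sequenced after ribosomal depletion, per the labels' protocols. The deposited table holds read counts per gene for 24060 entries, and the authors also deposited FPKM values of the same libraries. The submitters' processing notes name STAR, HTSeq and GRCm38; no source used here gives versions, filters or the strand setting, so overlapping and antisense genes cannot be separated. The members and gene lists were chosen with earlier results of these data known. Counts were analysed with edgeR 4.0.16 in R 4.3.3 (quasi-likelihood test, TMM scaling, default filter on low counts, 15595 genes, all 15 libraries in 1 fit) after leaving out Rn45s, Lars2 and Mir6236. P-values were adjusted by Benjamini-Hochberg over all tested genes, and genes were called below 0.05.

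The genes named were the hormone and transgene genes, the 12 largest rises and the 12 largest falls without overlap, up to 6 genes with the smallest p in each of 34 lists, genes within 1 Mb of Sema5a, Tram1l1 and Thsd7b, and the 10 smallest p against hIAPP; other genes were named after their values were seen, as examples of list members that passed or did not. Alternatives were DESeq2 1.42.0, other scaling and filters, left-out libraries and limma 3.58.1 on log2(FPKM + 1). Positions are from GENCODE on GRCm38 and promoter sequences from RefSeq on GRCm38.p6. No 2 libraries held identical values. Counting intervals are exact at 95% and cover counting error only. On simulated data the pipeline was tested before use.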

Additional observations from a re-analysis of the deposited data

Results flagged for a closer look

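The fold changes against rIAPP differed between hIAPP_hCAST and hIAPP for 16 of the genes named by rule. The rules took in the 10 genes with the smallest p of hIAPP_hCAST minus hIAPP, so these 10 were bound to be among the 16. Of all 15595 tested genes, 70 passed in that contrast (0.449%). The difference itself was tested as hIAPP_hCAST minus hIAPP (edgeR adjusted p below 0.05), because the rIAPP libraries are shared and cancel. The differences were positive for Tram1l1 (2.63), H2-Ea-ps (8.34), 1700006A11Rik (9.00), Edil3 (1.45), Cdon (0.49), Lancl3 (0.79) and Cd79a (1.02), all on the log2 scale. The value of 1700006A11Rik depends on the prior count, since hIAPP held 0 counts. The differences were negative for Loxl1 (-1.39), Mgp (-0.97), Cygb (-0.99), Eng (-0.76), Cxcl12 (-0.92), Tagln (-1.02), Ms4a7 (-0.83), Apoe (-0.78) and Gpnmb (-1.81). DESeq2 passed all 16, and a fit of the 2 groups alone passed Tram1l1 and 1700006A11Rik.

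Cxcl12 was not called without hIAPP 1 or 3 (adjusted p of up to 0.052), Cd79a without hIAPP 2 or 3 (0.064) and Tagln, an actin-binding protein of smooth muscle, without hIAPP 1 or 2 (0.0962). Of the genes with negative differences, Loxl1, Mgp, Cygb, Eng, Cxcl12, Apoe and Gpnmb were lowest in hIAPP_hCAST 3 within its group, and Ms4a7 in hIAPP_hCAST 2. The level of Tagln in each library is not given here. The acinar and matrix lists of hIAPP_hCAST 3 were the lowest of its group as well, and their part in these differences was not tested.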

How the results depend on the processing

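For the genes named by rule, 3161 of 3376 comparisons on counts kept direction and call, 185 lost and 30 gained a call, and 0 reversed. On FPKM 267 of 702 kept direction and call, 433 lost their call and 2 reversed. The calls of Ins1, Pcsk1, Slc7a2 and Eng were among those lost in each of the 3 FPKM fits. Genes called in hIAPP_hCAST minus rIAPP numbered 1925 to 2983 over the alternatives on counts other than left-out libraries, and 1951 to 3177 when a library was left out. With limma on log2 FPKM they numbered 89 (pseudocount 1), 38 (pseudocount 0.1) and 92 (no filter). The FPKM divisor holds the ribosomal reads, which shifts the median of all genes by 0.50, 0.61 and 0.29, and values on FPKM are given relative to it. Relative to hIAPP 1, the divisor was 0.986, 0.811 and 0.944 in rIAPP 1, 2 and 3. The counts outside the ribosomal-rich genes were 0.979, 0.265 and 0.843. Taking off the median leaves the resulting spread between the rIAPP libraries in place. Genes called in hIAPP_hCAST minus hIAPP numbered 283 with DESeq2, 107 with no filter, 2 with only the groups compared, 35 without the 3 ribosomal-rich libraries (an alternative chosen after seeing the data), and 7, 3 and 10 on FPKM. Left-out libraries gave 16 to 172. The cause of these changes was not tested.

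These values changed sign, for list medians by more than the SD of the list's mean log2 CPM between libraries of a group. On counts, the blood list had 1 tested gene of 7, at -0.08, and a median of 1.13 with no filter. Leaving out the filter lets in genes with almost no counts, such as Hbb-b1 with 2 in hIAPP_hCAST and 0 in rIAPP. The median of interleukin-1 genes ran from -0.14 (without rIAPP 3) to 0.17 (without hIAPP_hCAST 3) when a library was left out. Another 5 of the 34 lists had medians that changed sign on counts by less than that SD: Schwann and glial (-0.23 to 0.06), immediate-early (-0.22 to 0.09), delta and PP (-0.03 to 0.04), calpain (-0.04 to 0.16) and antioxidant genes (-0.03 to 0.07). On log2(FPKM + 1), Atp6v0d2 was -0.057 and the delta and PP median 0.12. With no filter on FPKM, Gclm was 0.023, and the medians were 0.30 for delta and PP, 0.11 for alpha-cell, -0.29 for lymphocyte, 0.18 for unfolded protein response and 0.14 for glycolysis genes. No paired analysis was possible because the labels give the groups no shared replicate numbers. rIAPP 2, with 9510502 counts outside the ribosomal-rich genes, and WT 2, with 1667190, limit the genes at low counts.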
